A study of Mus musculus with 17 samples.

Results

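The synaptic vesicle and release machinery described here was a set of 43 genes, found in the count table by matching Ensembl gene IDs to their symbols. All 43 had a row among the 39017 genes of the table, and all 43 were among the 22242 genes that passed the filter on low counts. They fell into 9 roles, with 4 SNARE fusion genes, 3 SNARE disassembly genes, 9 synaptotagmins, 2 complexins, 6 vesicle membrane genes, 2 vesicular glutamate transporters, 5 vesicle surface genes, 8 active zone genes and 4 endocytosis genes.

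The study asked how neurons of the cerebral cortex differ between the sexes in chronic experimental autoimmune encephalomyelitis (EAE), an immune-mediated mouse model of multiple sclerosis. RNA was taken from 17 cortices, 1 mouse per library, in 4 groups, with 4 male controls, 5 males with EAE, 4 female controls and 4 females with EAE. All groups, controls included, carried the NSE-Cre and RiboTag alleles, so that a neuron-specific enolase promoter drove the Cre that adds an HA tag to a ribosomal protein, and ribosome-bound RNA was pulled down with an antibody to HA. The mice were adults on a C57BL/6 background, the EAE groups were immunized with a myelin oligodendrocyte glycoprotein peptide in complete Freund's adjuvant with pertussis toxin, and controls were healthy mice without EAE. RNA from a pull-down measures ribosome-bound RNA of the tagged cells as a pool, so fewer cells of a type and less RNA per cell cannot be told apart.

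Neurotransmitter is released when a synaptic vesicle fuses with the plasma membrane at the active zone. SNARE proteins on the vesicle and on the target membrane zip together to drive fusion, synaptotagmins sense the calcium that triggers it, complexins hold and release the assembled SNAREs, and large scaffold proteins place and prime vesicles opposite calcium channels. After fusion the SNAREs are pulled apart for reuse and the vesicle membrane is taken back by endocytosis.

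Libraries held 66155142 to 98433383 counts, and the depth differed between the male groups without overlap, at 85800542 to 98433383 counts in controls and 70613567 to 76768267 in EAE. The first principal component took 68% of the variance and separated male EAE mice (4.63 to 39.4) from male controls (-59.2 to -1.20), with male control 4 and female control 2 farthest out. Markers of neurons were present in every library, and so were markers of other cells. The summed level of 6 excitatory neuron markers was 13320 to 16430 CPM, the counts per 1000000 counts of the scaled library, in male controls and 10590 to 12380 CPM in male EAE, where 3 rose and 1, Nrgn, fell. The summed level of 8 astrocyte markers was 3847 to 6895 CPM in male controls and 2280 to 3515 CPM in male EAE, with 0 rising and 6 falling. The 8 oligodendrocyte markers summed to 6474 to 9119 CPM over all mice, and the 7 microglia and 6 endothelial markers stayed at or under 82.5 CPM. Of the lymphocyte markers, Igkc reached 93.0 CPM in 1 mouse, while Cd3d, Cd8a, Cd79a and Cd79b had a lowest value of 0. All 7 lymphocyte markers tested had positive log2 fold changes in both sexes, with 3 called higher in male EAE and 1 in female EAE. Their median was 2.16 in males and 2.95 in females. They summed to 10.5 to 29.9 CPM in male controls and 27.5 to 110.4 CPM in male EAE. In females the sums were 13.4 to 37.4 CPM in controls and 45.7 to 61.1 CPM in EAE. The part of these cells and of depth in the results below was not tested.

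In control libraries the levels per kilobase of exon spanned several orders of magnitude (plot of levels per length). The highest per kilobase was Cplx2, a complexin, at 1154 ± 58.6 CPM per kb (SD, n = 8 control mice). Sncb, encoding beta-synuclein, stood at 1094 ± 131 CPM per kb and Vamp2, the main vesicle SNARE of the forebrain, at 997.9 ± 84.0 CPM per kb, and the ranges of these 3 genes overlapped. Snap25, the target-membrane SNARE, followed at 750.9 ± 72.3 CPM per kb with a highest value of 885.5, below the lowest Vamp2 value of 895.4. Cplx1 (750.0 ± 37.7 CPM per kb) could not be set apart from Snap25. Lengths count all annotated exon bases of a gene, 6791 for Snap25 and 3809 for Vamp2, and not the transcript in use. In CPM, not divided by length, Snap25 stood above Vamp2 and Sncb. Snap25 was at 4487 to 5191 CPM in male controls and 4789 to 6014 CPM in female controls. Vamp2 was at 3475 to 4285 and 3410 to 4040 CPM, and Sncb at 2015 to 2582 and 2013 to 2840 CPM.

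Paralogs of the same role differed widely in level. Slc17a7, encoding the vesicular glutamate transporter VGLUT1 of most cortical excitatory neurons, was at 343.1 ± 29.0 CPM per kb, and Slc17a6, encoding VGLUT2, at 1.69 ± 0.30 CPM per kb. Among the SV2 vesicle glycoproteins, Sv2a was at 97.6 ± 1.79, Sv2b at 30.4 ± 6.83 and Sv2c at 0.217 ± 0.088 CPM per kb, and their ranges did not overlap. All 8 active zone genes lay in the lower part of the order, from Rims1 at 18.7 ± 3.16 down to Unc13b at 0.470 ± 0.078 CPM per kb. Sv2c was the least abundant of the 43 genes, with 83 counts in the library where it was lowest.

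**Figure D1:**
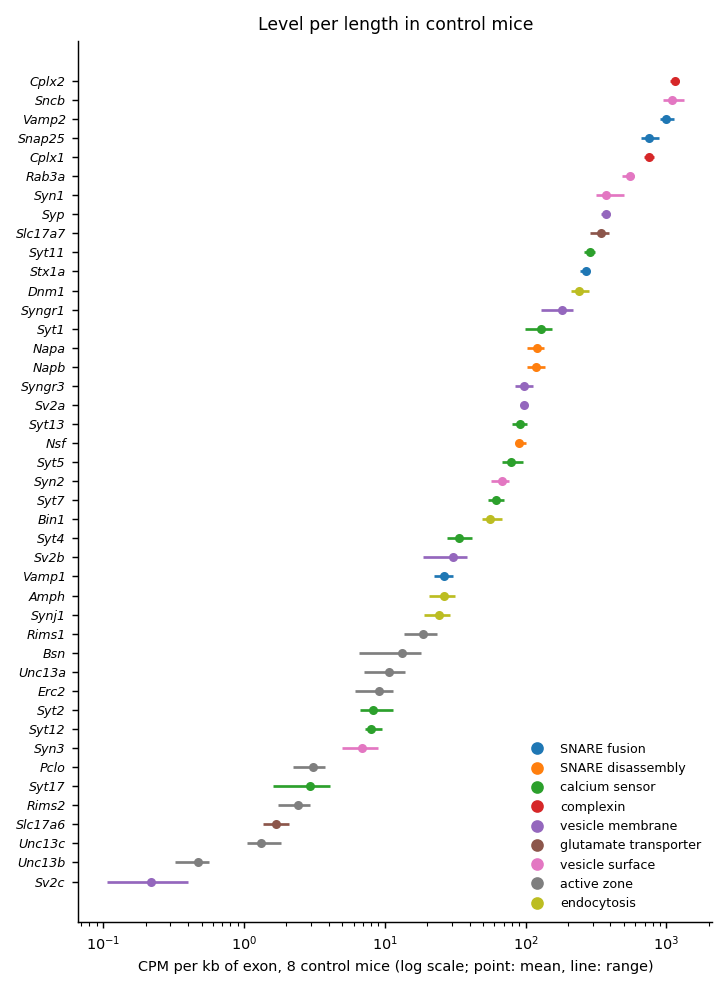
Level of the 43 genes per kilobase of summed exon length in the 8 control mice of both sexes, on a log axis, with points for means, lines for the lowest to highest mouse and colours for roles. Complexins, Sncb, Vamp2 and Snap25 lie at the top, active zone genes in the lower part, and Sv2c is lowest at 0.217 CPM per kb.

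In males, 20 of the 43 genes were called different in EAE, with 15 higher and 5 lower. A gene was called when the edgeR quasi-likelihood test gave an adjusted p under 0.1 (Benjamini-Hochberg over all genes tested) and the log2 fold change was beyond 0.25. Among all 22242 genes tested, 39.6% were called in males, 19.2% higher and 20.4% lower, so changed genes were common in this comparison. When only the 13560 genes with a mean log2 CPM above 1 were fitted, 54.98% of them were called. Of the 43 genes 22, or 51.16%, were called in that fit. Across the 43 genes the log2 fold changes had a median of 0.16, and across all genes tested 0.02. In 10 genes every male EAE mouse was above every male control and in 5 every one was below, where 10.1% and 14.3% of all genes, 24.4% together, were so separated. The summed level of the 43 genes was 36070 ± 612 CPM in male controls (SD, n = 4) and 36250 ± 1724 CPM in male EAE (SD, n = 5), a share of 3.61% and 3.63% of the scaled library.

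Counts by role are set beside the 19.2% of all genes called higher and the 20.4% called lower in males. Calls were more common in the fit limited to a mean log2 CPM above 1, which kept all 43 genes. There 3671 of 13560 genes were higher and 3784 lower. Active zone scaffold and priming genes had 7 of 8 members higher and 0 lower (median log2 fold change 0.37), and synaptotagmins had 4 of 9 higher and 0 lower (0.30). Vesicle membrane genes had 3 of 6 higher (0.25) and 1 of the 2 glutamate transporters was higher. Falls were called in 2 of 5 vesicle surface genes (-0.23), 1 of 4 SNARE fusion genes (-0.06), 1 of 3 SNARE disassembly genes (-0.04) and 1 of 4 endocytosis genes (0.06). Neither complexin was called. No role was tested as a set, and no difference between roles was tested.

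**Figure D2:**
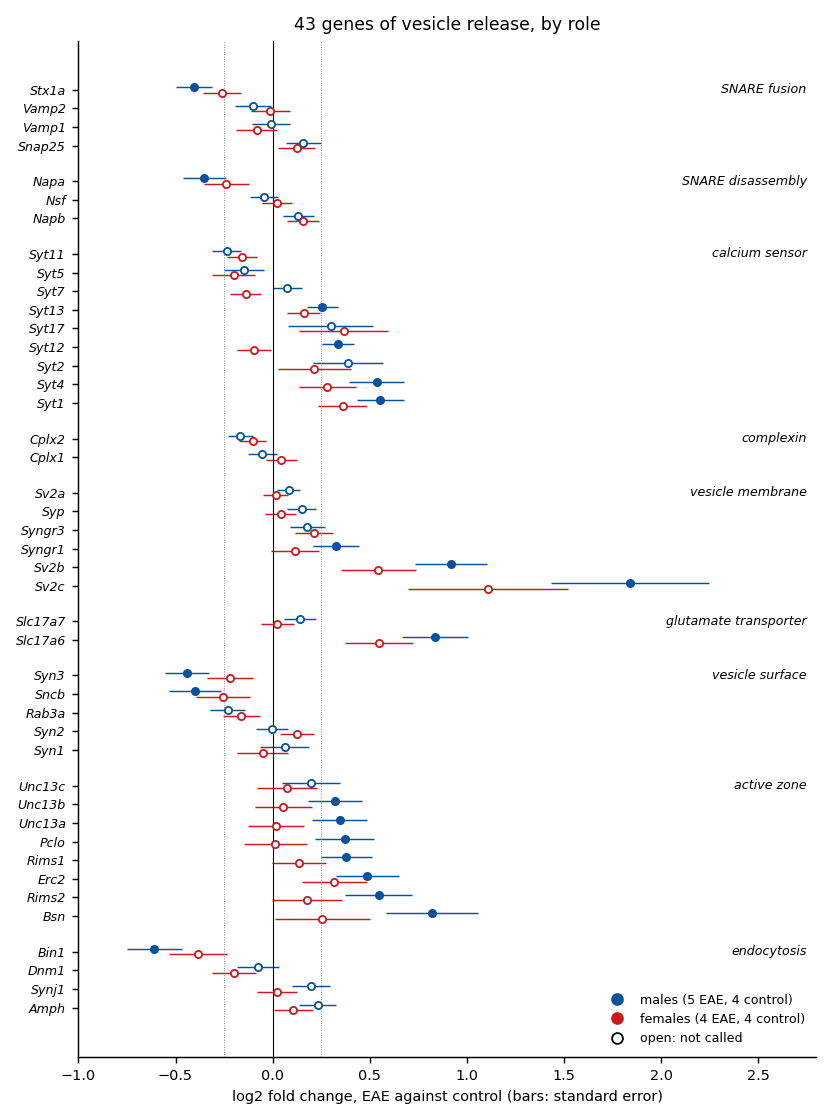
Log2 fold change of EAE against control for each of the 43 genes, grouped by role, in males (blue) and females (red), with bars for the standard error, filled points for called genes and dotted lines at 0.25 in either direction. In males 15 genes are filled to the right and 5 to the left, and in females none is filled.

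The number of calls in males differed with the libraries used and with exon length taken into account. Without male control 4 the count was 11 (8 higher and 3 lower), or 25.6% of the 43 genes, where 26.25% of all genes were called. When 1 surrogate variable estimated from the data was added to the fit it was 0 in males, where 9 genes of the whole table were then called. The surrogate variable took values of 0.044 to 0.351 in male EAE and -0.516 to 0.0046 in male controls, so it and EAE could not be told apart in males. The called rises had a median exon length of 8.38 kb, the called falls 3.79 kb and the other genes 5.21 kb. The slope of log2 CPM on exon length, per doubling of length, was 0.027 to 0.141 in male EAE and -0.177 to 0.025 in male controls. With this trend taken out of each library as an offset, 11 genes were higher and 4 lower, or 34.9% of the 43 genes, where 36.95% of all genes were called. In the fit with all libraries and no offset the share of the 43 genes was 46.5%.

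Promoters are shown for 4 genes, the largest rise (Sv2c), the largest rise among active zone genes (Bsn) and a pair of highly expressed genes that fell (Stx1a and Sncb). Bin1 and Syn3, which fell more, had no promoter in the reference used. Each is the 250 bases before the RefSeq start on GRCm38.p6, at chr13:96132578-96132827 (minus strand) for Sv2c, chr9:108190384-108190633 (minus strand) for Bsn, chr5:135023232-135023481 (plus strand) for Stx1a and chr13:54766596-54766845 (minus strand) for Sncb. Capitals mark GGGCGG, a GC box, or TGACG, the core of a cyclic AMP response element, on either strand.
Sv2c: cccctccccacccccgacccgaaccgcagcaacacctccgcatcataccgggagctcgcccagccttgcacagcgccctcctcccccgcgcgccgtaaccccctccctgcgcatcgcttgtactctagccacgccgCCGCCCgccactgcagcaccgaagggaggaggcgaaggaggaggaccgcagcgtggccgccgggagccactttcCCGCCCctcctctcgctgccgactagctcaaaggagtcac
Bsn: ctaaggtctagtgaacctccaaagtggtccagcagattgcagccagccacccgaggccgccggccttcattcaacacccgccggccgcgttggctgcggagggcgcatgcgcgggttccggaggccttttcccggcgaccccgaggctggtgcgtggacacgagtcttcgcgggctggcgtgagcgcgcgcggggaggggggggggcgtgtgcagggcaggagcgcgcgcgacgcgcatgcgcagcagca
Stx1a: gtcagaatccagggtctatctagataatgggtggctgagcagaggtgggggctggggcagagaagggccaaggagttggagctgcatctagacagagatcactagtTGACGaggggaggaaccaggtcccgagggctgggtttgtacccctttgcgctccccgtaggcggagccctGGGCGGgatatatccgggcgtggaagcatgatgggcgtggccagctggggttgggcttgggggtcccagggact
Sncb: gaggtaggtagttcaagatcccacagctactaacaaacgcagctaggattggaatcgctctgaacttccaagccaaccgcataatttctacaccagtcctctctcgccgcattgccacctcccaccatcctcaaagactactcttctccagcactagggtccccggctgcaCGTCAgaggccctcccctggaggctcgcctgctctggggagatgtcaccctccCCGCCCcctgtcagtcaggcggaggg
The GC box letters were found in 22 of the 31 members with a promoter in the table (71.0%) and in 35.4% of the promoters of 27025 genes, and TGACG in 9 of 31 (29.0%) and in 19.8%. The 27025 genes were not limited to the 22242 tested here. Shares were not matched for expression or GC content, so the gap is not read as a property of these members. The rising Sv2c had 2 GC boxes and the falling Stx1a and Sncb had 1 each beside 1 TGACG, while Bsn had neither. The GC content of the 4 promoters was 58.8% to 71.6%. The motifs did not overlap each other, and a match of letters is a description of the window. Motifs were not compared between rising and falling genes.

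SV2 genes, which encode vesicle glycoproteins with a transporter fold that take part in vesicle priming, held the largest rise. Sv2c (ENSMUSG00000051111, chr13:95954594-96132577, minus strand) was at 1.69, 2.02, 1.51 and 1.98 CPM in male controls 1 to 4 and at 5.16, 7.84, 3.45, 7.34 and 8.48 CPM in male EAE 1 to 5. Every male EAE mouse was above every male control, at a log2 fold change of 1.84 ± 0.41 (SE, edgeR adjusted p = 0.0055). In females it was at 3.90, 1.04, 2.53 and 2.19 CPM in controls 1 to 4 and at 2.87, 3.91, 11.2 and 2.87 CPM in EAE 1, 3, 4 and 5, so only female EAE 4 stood far above the controls. Sv2c is best known from the basal ganglia, and 4 of 9 striatal markers were also higher in male EAE, among them Pde10a (log2 fold change 1.67 ± 0.36, adjusted p = 0.0054). The 9 markers had a median log2 fold change of 0.54 in males and 0.77 in females, where 0 were called. The summed striatal markers were at 984.4 to 2014 CPM in male controls and 1108 to 2304 CPM in male EAE, which overlapped, and their part in the Sv2c values was not tested.

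Sv2b (ENSMUSG00000053025, chr7:75114894-75309262, minus strand) was at 266.7, 283.0, 257.7 and 155.5 CPM in male controls and at 437.5, 527.1, 338.7, 488.0 and 480.6 CPM in male EAE. The groups did not overlap, and male control 4 was lowest. The log2 fold change was 0.92 ± 0.19 (SE, edgeR adjusted p = 0.0054), a 1.89-fold rise, and 0.77 without male control 4. The female controls were at 321.9, 206.5, 224.0 and 321.0 CPM and female EAE mice at 320.7, 421.2, 486.0 and 336.2 CPM, which met at 1 mouse. Sv2a, the most abundant of the 3, was at 444.9 to 466.8 CPM in male controls and 457.6 to 506.4 CPM in male EAE and was not called (0.08 ± 0.06, adjusted p = 0.31).

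Other vesicle membrane genes moved less. Syngr1, a synaptogyrin, rose by a log2 fold change of 0.33 ± 0.12 (adjusted p = 0.041) with no overlap between male groups, and its call was lost without male control 4 (adjusted p = 0.14). Syp, encoding synaptophysin, had 0.15 ± 0.07 (adjusted p = 0.13) and Syngr3 had 0.18 ± 0.09 (adjusted p = 0.14). Exons of Syp overlap the antisense gene Gm14703, which held 1193821 counts against 2760097 for Syp.

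Of the vesicular glutamate transporters, Slc17a6 rose and Slc17a7 was not called. Slc17a6 (ENSMUSG00000030500, chr7:51622006-51671119, plus strand) was at 8.37, 11.2, 9.15 and 7.73 CPM in male controls and at 16.01, 18.4, 13.4, 17.9 and 15.6 CPM in male EAE. Every male EAE mouse was above every control, at a log2 fold change of 0.84 ± 0.17 (SE, edgeR adjusted p = 0.0054), a 1.79-fold rise. Among females, controls stood at 11.03, 7.32, 7.599 and 10.6 CPM and female EAE mice at 10.6, 13.9, 17.8 and 11.1 CPM. VGLUT2 is most abundant in thalamic neurons, and of 6 thalamic markers 1 was higher and 2 were lower in male EAE, with sums of 212.0 to 311.9 CPM in male controls and 287.9 to 350.9 CPM in male EAE, most of it from Adarb1, which cortical neurons also express. Slc17a7 was at 1889, 1895, 1948 and 1557 CPM in male controls and 1817 to 2134 CPM in male EAE (0.14 ± 0.08, adjusted p = 0.20).

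Of the 8 active zone genes, 7 were called higher in males. Bsn (ENSMUSG00000032589, chr9:108096022-108190384, minus strand), encoding the giant scaffold bassoon, was at 180.9, 286.3, 244.3 and 104.8 CPM in male controls and at 298.7, 329.6, 294.7, 471.9 and 407.0 CPM in male EAE. The groups were separated by a small gap, between 286.3 and 294.7 CPM, and male control 4 was again lowest. The log2 fold change was 0.82 ± 0.24 (SE, edgeR adjusted p = 0.014), 0.62 without male control 4 and 0.51 with the length offset. Female controls were at 214.3, 163.6, 250.6 and 238.0 CPM and female EAE mice at 198.2, 271.6, 350.0 and 214.5 CPM, which overlapped.

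Rims2 (ENSMUSG00000037386, chr15:39198261-39684372, plus strand), encoding a RIM protein that tethers calcium channels and vesicles, was at 22.2, 29.8, 27.1 and 19.6 CPM in male controls and at 33.2, 37.4, 30.7, 40.6 and 38.1 CPM in male EAE. The log2 fold change was 0.55 ± 0.17 (SE, edgeR adjusted p = 0.021), and the male groups did not overlap. With the length offset it was 0.31. In females, controls were at 26.0, 18.1, 29.2 and 30.5 CPM and female EAE mice at 22.6, 30.9, 39.3 and 24.5 CPM, with overlap.

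The other called active zone genes in males were Erc2 (0.49 ± 0.16), an ELKS scaffold, Rims1 (0.38 ± 0.13), Pclo (0.37 ± 0.15), encoding piccolo, and the Munc13 priming genes Unc13a (0.34 ± 0.14) and Unc13b (0.32 ± 0.14), with male groups that overlapped in all 5. Unc13c, the Munc13 best known from cerebellum, had 0.20 ± 0.15 (adjusted p = 0.32). These 5 calls were lost without male control 4 and also with the length offset, and of the 7 active zone genes called, Bsn and Rims2 kept their call in both. With the offset Pclo and Unc13b, with 22.5 and 22.7 kb of exon, changed sign to -0.03 and -0.07.

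**Figure D3:**
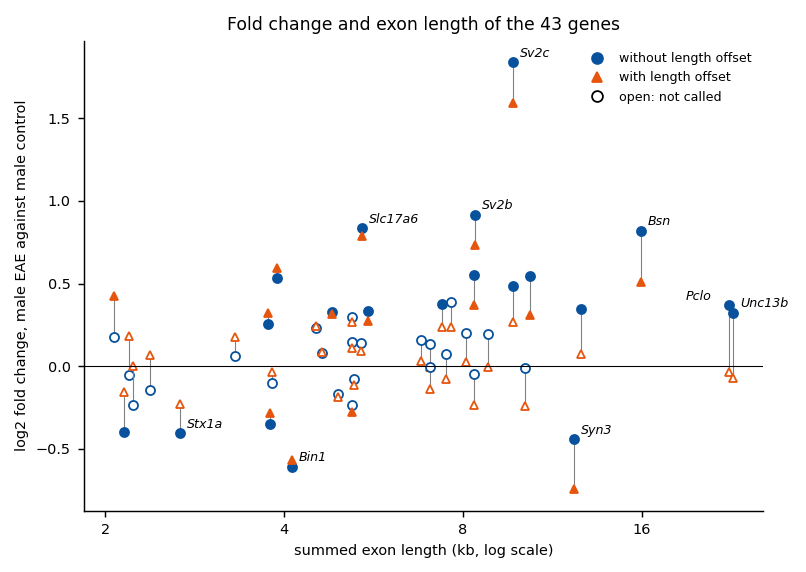
Log2 fold change of the 43 genes in male EAE against male control, by summed exon length in kb on a log axis, without (blue circles) and with (orange triangles) the length offset, with filled symbols for called genes and a line joining each gene's values. The long genes Pclo and Unc13b drop from 0.37 and 0.32 to below 0, while Sv2c, Sv2b, Slc17a6 and Bsn stay above 0.25.

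Among the synaptotagmins, Syt1, the calcium sensor of fast release in forebrain neurons, rose. Syt1 (ENSMUSG00000035864, chr10:108497650-109010982, minus strand) was at 1100, 1163, 1089 and 825.1 CPM in male controls and at 1543, 1579, 1343, 1740 and 1460 CPM in male EAE. The groups did not overlap, at a log2 fold change of 0.55 ± 0.12 (SE, edgeR adjusted p = 0.0054), a 1.47-fold rise, and of 0.37 with the length offset. The female controls were at 1135, 928.2, 1101 and 1278 CPM and female EAE mice at 1162, 1606, 1587 and 1347 CPM, where 1 EAE mouse lay within the controls.

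Syt4, a synaptotagmin with a reduced calcium response, rose by 0.54 ± 0.14 in males (adjusted p = 0.0098), from 107.1 to 149.8 CPM in controls to 146.4 to 192.2 CPM in EAE. Syt13, which lacks calcium-binding residues, rose by 0.25 ± 0.08 (adjusted p = 0.021), just past the fold threshold, and its call was lost in 8 of the alternatives, with 0.22 without male control 4, 0.23 without male EAE 4, 0.246 without male EAE 5 and 0.24 without female EAE 1 or female EAE 4. Syt11, also without a calcium response in release, had -0.24 ± 0.07 (adjusted p = 0.019) with every male EAE mouse below every control, and was not called because its fold change was just inside the threshold. Syt2, the fast sensor of hindbrain and some interneurons, had 0.39 ± 0.18 (adjusted p = 0.10) and missed the threshold on p. Syt5, Syt7 and Syt17 had -0.15 ± 0.10, 0.08 ± 0.08 and 0.30 ± 0.22, with adjusted p of 0.29 to 0.47.

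Syt12 (ENSMUSG00000049303, chr19:4445908-4477447, minus strand), a synaptotagmin that does not bind calcium, was at 40.1, 41.4, 42.3 and 42.2 CPM in male controls and at 54.1, 53.6, 47.5, 54.9 and 52.2 CPM in male EAE. The male groups did not overlap, at 0.34 ± 0.08 (SE, edgeR adjusted p = 0.0073). In females the mean was 47.1 CPM in controls and 44.1 CPM in EAE. An antisense transcript, A930001C03Rik, overlaps Syt12 and held 27871 counts against 63933 for Syt12 over all libraries, with log2 fold changes of 0.30 in males and -0.12 in females. Whether the counting used strand is not given in the sources used here, so reads of these genes may not have been told apart.

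The SNARE fusion genes were mostly not called. Stx1a (ENSMUSG00000007207, chr5:135023482-135051100, plus strand), encoding syntaxin-1A, was the exception, at 715.8, 690.0, 749.6 and 713.2 CPM in male controls and at 577.5, 476.8, 624.1, 513.6 and 513.8 CPM in male EAE. Every male EAE mouse was below every control, at a log2 fold change of -0.41 ± 0.09 (SE, edgeR adjusted p = 0.0058). With the length offset it was -0.23 and no longer past the fold threshold. Among females, controls stood at 653.2, 742.3, 743.0 and 752.9 CPM and female EAE mice at 639.3, 631.8, 491.9 and 646.7 CPM, again without overlap.

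Snap25 (ENSMUSG00000027273, chr2:136713453-136782428, plus strand) was at 5191, 5011, 4487 and 4611 CPM in male controls and at 5703, 5420, 5131, 5615 and 5064 CPM in male EAE. The groups overlapped, at 0.16 ± 0.09 (SE, edgeR adjusted p = 0.19). Vamp2 had -0.10 ± 0.09 (adjusted p = 0.44) and Vamp1, its paralog, -0.01 ± 0.10 (adjusted p = 0.96). Of the complexins, Cplx1 had -0.05 ± 0.08 (adjusted p = 0.63), and Cplx2 had -0.17 ± 0.06 (adjusted p = 0.053) with every male EAE mouse below every control but a fold change inside the threshold.

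SNARE disassembly needs the ATPase NSF and its SNAP adaptors. Napa (ENSMUSG00000006024, chr7:16098458-16117975, plus strand), encoding alpha-SNAP, was at 465.4, 385.9, 440.8 and 513.0 CPM in male controls and at 377.9, 341.0, 401.4, 343.6 and 303.6 CPM in male EAE. It fell by 0.35 ± 0.11 on the log2 scale (SE, edgeR adjusted p = 0.021), with 1 EAE mouse within the controls, and without male control 4 the adjusted p was 0.10. Female controls were at 393.1, 486.1, 494.9 and 449.9 CPM and female EAE mice at 400.7, 401.9, 309.9 and 434.0 CPM. Napb, encoding beta-SNAP, had 0.13 ± 0.08 (adjusted p = 0.21) and Nsf had -0.04 ± 0.07 (adjusted p = 0.68).

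Of the vesicle surface genes, Syn3 and Sncb fell in males. Syn3 (ENSMUSG00000059602, chr10:86055125-86498896, minus strand), a synapsin that ties vesicles to each other, was at 78.9, 86.0, 87.8 and 109.7 CPM in male controls and at 67.8, 67.5, 66.03, 65.5 and 67.0 CPM in male EAE. The 5 male EAE mice lay close together, between 65.5 and 67.8 CPM and below every control, at a log2 fold change of -0.44 ± 0.11 (SE, edgeR adjusted p = 0.0081), and of -0.74 with the length offset. In females, controls were at 70.5, 93.8, 87.5 and 60.7 CPM and female EAE mice at 63.8, 70.9, 69.99 and 63.7 CPM, with overlap. Timp3 lies on the opposite strand within Syn3, held 152704 counts against 103839 for Syn3, and had a log2 fold change of -0.30 in males. Its part in the Syn3 counts was not tested.

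Sncb (ENSMUSG00000034891, chr13:54758860-54766595, minus strand) was at 2469, 2015, 2253 and 2582 CPM in male controls and at 2025, 1548, 2071, 1762 and 1434 CPM in male EAE. It fell by 0.40 ± 0.13 on the log2 scale (SE, edgeR adjusted p = 0.028), with overlap of the groups, and the call was lost without male control 4 (adjusted p = 0.11) and with the length offset (adjusted p = 0.31). The female controls were at 2013, 2345, 2840 and 2247 CPM and female EAE mice at 1996, 2099, 1516 and 2303 CPM. Syn1 and Syn2, the abundant synapsins, had 0.06 ± 0.12 and -0.0039 ± 0.084, and Rab3a, the vesicle GTPase that binds RIM, had -0.23 ± 0.09 (adjusted p = 0.054).

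Among the endocytosis genes, Bin1 (ENSMUSG00000024381), encoding an amphiphysin that bends membranes, had the largest fall of the 43 genes. It was at 221.5, 210.0, 228.8 and 280.8 CPM in male controls and at 159.8, 137.4, 190.6, 141.7 and 141.8 CPM in male EAE. No male EAE mouse reached the controls, and the log2 fold change was -0.61 ± 0.14 (SE, edgeR adjusted p = 0.0060). Among females, controls stood at 200.8, 273.3, 223.8 and 207.5 CPM and female EAE mice at 220.2, 151.6, 133.6 and 189.2 CPM. Bin1 is also made by oligodendrocytes, whose 8 markers had 1 higher and 2 lower in male EAE and summed to 6744 to 7359 CPM in male controls and 6474 to 7841 CPM in male EAE. Amph, its paralog at synapses, had 0.23 ± 0.09 (adjusted p = 0.066) with every male EAE mouse above every control, just inside the fold threshold, while Synj1 had 0.20 ± 0.10 (adjusted p = 0.13) and Dnm1, the neuronal dynamin, -0.08 ± 0.11 (adjusted p = 0.64).

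**Figure D4:**
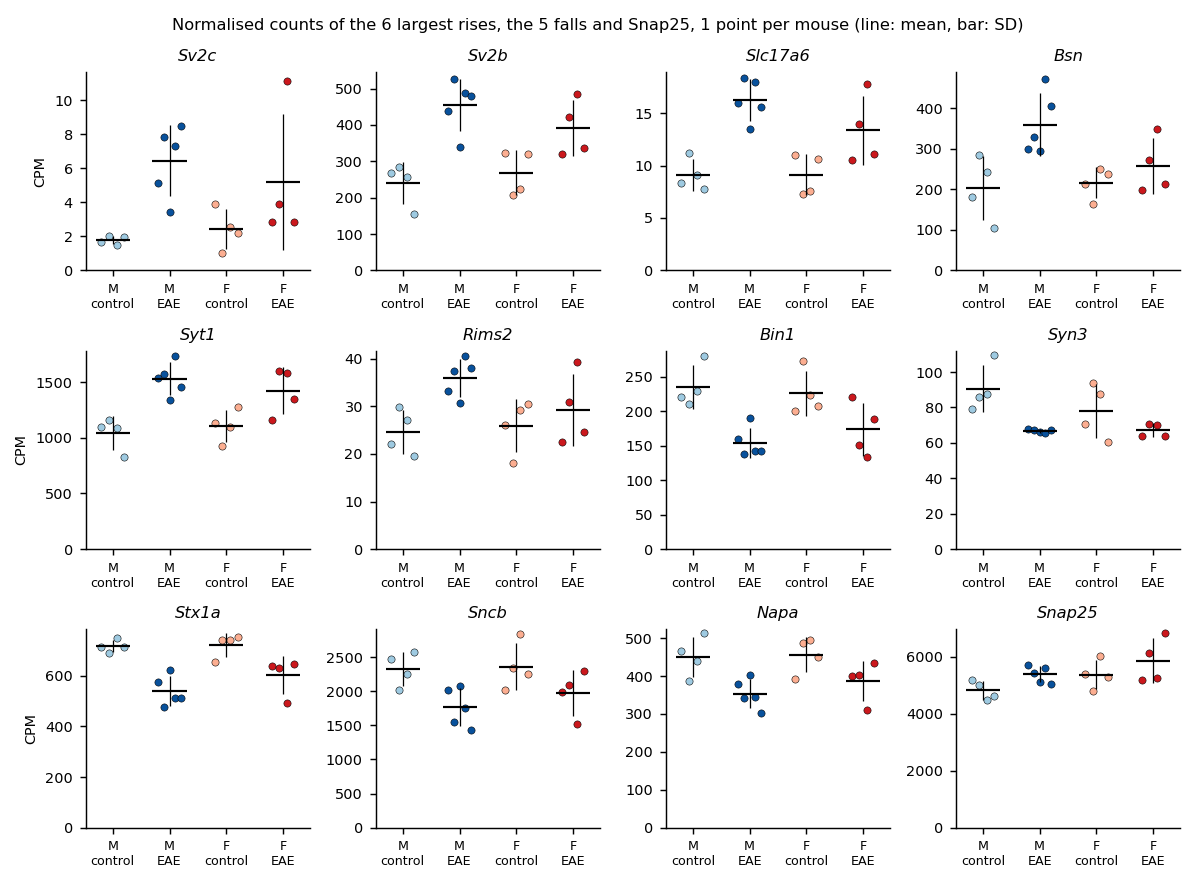
Normalised counts (CPM, linear axes from 0) of the 6 largest rises, the 5 falls and Snap25, with 1 point per mouse, a line for the group mean and a bar for the SD, in males (M) and females (F). Male EAE mice lie above all male controls for the 6 rises and below them for Bin1, Syn3 and Stx1a, while the groups overlap for Sncb, Napa and Snap25.

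In females with EAE, 0 of the 43 genes were called, where 0.0584% of all genes were (0.036% higher and 0.0225% lower). Without adjustment, 7 of the 43 had p under 0.05, as did 19.8% of all genes. This count moved with the library left out. It was 2 without female EAE 4, where 2356 of 22411 genes passed, and 12 without female EAE 5, where 4681 of 22461 passed. It was 13 without female control 1, where 4909 of 22417 passed, and 13 without female control 4, where 5031 of 22411 passed. DESeq2 called 3 of the 43 (6.98%), where it called 6.09% of all genes, and limma voom called 0. The smallest p values belonged to Slc17a6, Syt1 and Sv2b, with log2 fold changes of 0.55 ± 0.18, 0.36 ± 0.13 and 0.54 ± 0.19 (edgeR adjusted p = 0.18, 0.19 and 0.19), and these were the 3 genes that DESeq2 called. Among the other 4 of the 7 with all libraries, Sv2c had 1.11 ± 0.41, Syngr3 0.21 ± 0.10, Stx1a -0.26 ± 0.10 and Bin1 -0.38 ± 0.15, with adjusted p of 0.20 to 0.24. Stx1a alone had female groups that did not overlap, where 3.99% of all genes were so separated upwards and 3.44% downwards, 7.43% together. Log2 fold changes of the 43 had a median of 0.04 in females, and those of the 8 active zone genes a median of 0.10.

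The difference between the sexes in the response to EAE was tested directly, since a call in males and none in females is no test of it. In this test 0 of the 43 genes were called, and 0% of all genes were. Of the 43, only Syt12 had an unadjusted p under 0.05, where 4.19% of all genes did. This count was 8 without male control 2, where 2233 of 22409 genes passed, 5 without female EAE 4, where 2135 of 22411 passed, and 3 without female control 2, where 2295 of 22450 passed, and it was 2 without male control 3 or female EAE 3. For Syt12 the male minus female difference was 0.43 ± 0.12 (SE, edgeR adjusted p = 0.81), from a rise in males and a fold change of -0.10 ± 0.09 in females. Female controls were at 49.97, 40.5, 44.8 and 53.3 CPM and female EAE mice at 42.2, 45.3, 47.9 and 40.9 CPM.

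Syt7 (ENSMUSG00000024743, chr19:10389090-10453180, plus strand), the slow sensor of asynchronous release and facilitation, had the next smallest p, with a difference of 0.22 ± 0.11 (edgeR adjusted p = 0.81). It was at 429.7, 473.5, 464.0 and 402.9 CPM in male controls and at 456.9, 451.8, 475.5, 489.7 and 458.9 CPM in male EAE. In females, controls were at 463.1, 449.2, 527.6 and 482.3 CPM and female EAE mice at 405.0, 464.0, 465.5 and 410.4 CPM. Both pairs of groups overlapped. Bsn was the third, with a difference of 0.56 ± 0.34 (edgeR adjusted p = 0.81).

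Between male and female controls 0 of the 43 genes were called and 0 had an unadjusted p under 0.05, where 0.0674% (0.0495% higher and 0.018% lower in males) and 4.7% of all genes did. DESeq2 and limma voom called 0 of the 43 as well. The smallest p belonged to Syt12, lower in males at a log2 fold change of -0.18, followed by Syn3 (0.21, higher in males) and Snap25 (-0.16, lower in males), each with an edgeR adjusted p of 1.0. Snap25 was at 5386, 4789, 6014 and 5307 CPM in female controls and at 5174, 6131, 5270 and 6854 CPM in female EAE.

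Ratios of related genes within a mouse do not depend on library size and show unequal change only. For 13 pairs, the log2 ratio of counts was compared with a two-sided exact permutation test on the absolute difference of means in males, in females and between the sexes, with Benjamini-Hochberg adjustment over the 39 tests and a threshold of 0.1. No pair passed. In males the smallest p that 5 against 4 mice allow, 0.00794, was reached by 3 pairs, each with an adjusted p of 0.10 that lay just above the threshold. At that p a pair could pass only if more of the other tests had small p values. The miss therefore does not measure the size of their differences. In females the smallest p that 4 against 4 mice allow is 0.0286, which passes the adjusted threshold only if many of the other tests have p values as small, so the female comparison could hardly pass.

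The Sv2a/Sv2b log2 ratio was 0.81, 0.65, 0.81 and 1.53 in male controls and 0.13, -0.06, 0.46, 0.01 and -0.07 in male EAE (difference -0.86, exact permutation p = 0.00794). The Slc17a7/Slc17a6 log2 ratio was 7.82, 7.40, 7.73 and 7.65 in male controls and 7.06, 6.76, 7.21, 6.86 and 6.86 in male EAE (difference -0.70, exact permutation p = 0.00794). The Bsn/Pclo log2 ratio was 1.62, 1.75, 1.71 and 1.06 in male controls and 2.01, 2.14, 1.87, 2.175 and 2.03 in male EAE (difference 0.51, exact permutation p = 0.00794). In all 3 pairs the male groups did not overlap, but the adjusted p missed the threshold. The Sv2a/Sv2c log2 ratio was 8.11, 7.78, 8.22 and 7.82 in male controls and 6.54, 6.01, 7.08, 6.06 and 5.75 in male EAE (difference -1.69, exact permutation p = 0.016, adjusted p = 0.12). Syn1/Syn3 had the same p, with 3.25 to 3.90 in male controls and 3.93 to 4.35 in male EAE (difference 0.49). In females the differences were -0.54 for Sv2a/Sv2b, -0.52 for Slc17a7/Slc17a6, 0.23 for Bsn/Pclo and -0.98 for Sv2a/Sv2c. Their exact permutation p was 0.057 to 0.20, with overlap in each. For Syn1/Syn3 the female difference was 0.15 (exact permutation p = 0.57), also with overlap. The count of pairs passing in males was 7 with the length offset, 7 without male control 2 and 4 when ratios of CPM were not put on a log scale.

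**Figure D5:**
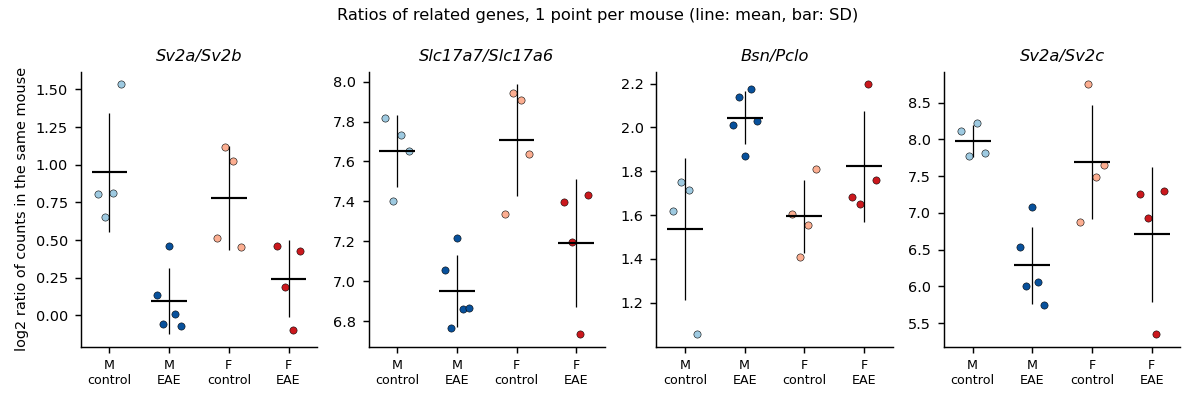
Log2 ratio of counts of 2 related genes in the same mouse for 4 pairs, with 1 point per mouse, a line for the mean and a bar for the SD, in males (M) and females (F), on axes that do not start at 0. Male EAE mice lie apart from male controls in each panel, by differences of -0.86, -0.70, 0.51 and -1.69, while female groups overlap.

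Among 54 other genes of vesicle release and recycling, 20 were higher and 11 lower in male EAE, with a median log2 fold change of 0.13. Over all genes tested 19.2% were higher and 20.4% lower in males. Among genes with a mean log2 CPM above 1, fitted alone, 54.98% were called in either direction. The 54 genes were not tested as a set. Other vesicle genes had 8 of 12 higher and 2 lower, other SNARE genes and regulators 5 of 13 higher and 3 lower, other active zone genes 3 of 7 higher and 0 lower, other calcium sensors and complexins 2 of 8 higher and 1 lower, and other endocytosis genes 2 of 14 higher and 5 lower. The largest rises were Syt10, a synaptotagmin of peptide release, at 1.56 ± 0.44 (edgeR adjusted p = 0.012), Stxbp5l, a tomosyn that binds syntaxin, at 1.10 ± 0.28 (adjusted p = 0.0078), and Rimbp2, which links RIMs to calcium channels, at 1.01 ± 0.26 (adjusted p = 0.0088). The largest falls were Sncg, gamma-synuclein, at -0.82 ± 0.25 (adjusted p = 0.017), Vamp3, a SNARE found in most cells including glia, at -0.68 ± 0.15 (adjusted p = 0.0057), and Clta, a clathrin light chain, at -0.51 ± 0.12 (adjusted p = 0.0062). Syt10 had a mean of 0.336 CPM in male controls and 0.998 CPM in male EAE, and Sncg 1.13 and 0.639 CPM. In females 0 of the 54 were called, where 0.0584% of all genes were.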

How the data were processed

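Cortical neuron RNA was pulled down through an HA-tagged ribosomal protein, and stranded poly(A) libraries (KAPA Stranded RNA-Seq Kit) were sequenced, 1 library per mouse. Per the labels and the study's methods, the authors demultiplexed reads with bcl2fastq 2.17, checked them with FastQC, trimmed them with Trimmomatic, aligned them to mm10 with QuasR and deposited raw counts per gene, which were used as they stand. The strand setting and annotation release of the counting are not given in the sources used here. Symbols and exon lengths came from GENCODE, which matched 37607 of 39017 genes, and promoters from RefSeq on GRCm38.p6, which matched 31 of 43 members.

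Genes with at least 1 count in at least 9 of the 17 libraries were normalised with TMM and tested with the edgeR 4.0.16 quasi-likelihood test in R 4.3.3, with 1 mean per group over all 17 libraries. Calls needed an adjusted p under 0.1 and a log2 fold change beyond 0.25. CPM are per 1000000 TMM-scaled counts. Alternatives were DESeq2 1.42.0, limma 3.58.1 voom, the likelihood ratio test, DESeq2 size factors, other filters, each sex alone, a replicate block, a gene length offset, 1 surrogate variable (sva 3.50.0) and leaving out libraries. Pair ratios used counts plus 0.5. The scripts were tested on simulated data. No 2 libraries of a group agreed within sampling noise. Libraries are separate mice by their labels.

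The members and lists were chosen with earlier results of these data known. Values in every mouse are given for the 6 largest rises and up to 6 largest falls called in males, and for the 3 smallest p values in females, in the sex difference and between controls. For other pathway genes the 3 largest called rises and falls in males are named, and for pairs the 4 with the smallest p in males, with ties broken by the size of the difference. Of the striatal markers listed for this work, 1 is not reported here and was left out of their count and sum.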

Additional observations from a re-analysis of the deposited data

Results flagged for a closer look

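In 11 of 224 sets of 4 or 5 mice (a gene or pair in a group) the highest or lowest mouse stood far from the others by Dixon's criterion, where chance flags about 1 in 20 groups, or 11.2 here. Female EAE 4 accounted for 4 of them, with Stx1a at 491.9 CPM against 631.8 to 646.7 in the other 3 mice, Sv2c at 11.2 CPM against 2.87 to 3.91, Erc2 at 133.4 CPM against 104.7 to 109.4, and a Syt1/Syt2 log2 ratio of 3.94 against 4.47 to 4.53. Male control 4 accounted for 3, with Syt17 at 8.39 CPM against 16.8 to 18.2, Slc17a7 at 1557 CPM against 1889 to 1948, and a Syn1/Syn3 log2 ratio of 3.25 against 3.80 to 3.90. The other 4 were Stx1a in female control 1 (653.2 CPM against 742.3 to 752.9), Slc17a7 in female control 4 (2103 CPM against 1786 to 1823), the Cplx1/Cplx2 log2 ratio in male control 3 (-1.94 against -1.80 to -1.78) and the Syn1/Syn2 log2 ratio in female control 3 (2.03 against 1.19 to 1.29).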

How the results depend on the processing

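The 20 male calls became 0 with 1 surrogate variable, 17 (12 higher and 5 lower) with the replicate block and 11 to 25 when 1 library was left out, lowest without male control 4. With DESeq2, limma voom, the likelihood ratio test and DESeq2 size factors all 20 remained called, and 13 remained with the length offset. The numbers did not pair the mice in every case: deviations of same-numbered mice correlated at -0.019, 0.13, -0.28 and -0.57 in males and at -0.37, 0.39 and 0.53 in females, so the replicate block is not read as a pairing. With 1 surrogate variable 8 called genes changed sign: Napa 0.017, Syngr1 -0.075, Rims1 -0.060, Rims2 -0.14, Bsn -0.089, Pclo -0.090, Erc2 -0.091 and Unc13a -0.11. With the length offset Pclo (-0.032) and Unc13b (-0.072) did. The cause was not tested. DESeq2 called 3 genes in females (6.98% of the 43, and 6.09% of all genes). Pairs passing in males rose from 0 to 7 with the length offset, to 4 with ratios of CPM and to 0 to 7 when a library was left out, and pairs passing in the sex difference to 0 to 1, in each case highest without male control 2. Depth limits Sv2c most, with 83 counts in 1 library, while the other 42 genes had at least 579 counts in every library.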
